A study of Mus musculus with 36 samples.

Results

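The genes described here are 10 effectors of the pluripotent state, Dppa2, Dppa3, Dppa4, Dppa5a, Utf1, L1td1, Tdh, Lin28a, Sall4 and Fbxo15, chosen by name, out of 19426 genes listed in either of the study's expression tables. All 10 were listed in the table of mouse embryonic stem cells (ESCs), and 9 in that of neural stem cells (NSCs), where Dppa3 was not listed. The cells came from the V6.5 strain (mixed 129/C57BL/6, male) and were either Tet triple knockout (TKO), lacking all 3 TET dioxygenases, or Tet wildtype (WT). RNA-seq covered 2 TKO and 3 WT lines as NSCs and the same numbers as ESCs, and promoter capture Hi-C (pcHiC) covered 1 TKO and 1 WT NSC library. NSCs had been derived from the ESCs in culture and were harvested on day 6 after 1 passage. ESCs had been freed of feeder cells by 45 minutes of preplating and held on gelatin with serum and LIF for 24 hours. The TKO lines carry the codes c2 and h7 in both cell types, and they are called TKO line 1 and TKO line 2. The submitters describe the TKO and WT lines as independent, and nothing more is given on how the WT lines, numbered 1 to 3, were obtained, so that p-values measure the spread between these samples. The series has 36 samples, and its 4 bisulfite and 20 CUT&Tag libraries were left out here.

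TET enzymes oxidize 5-methylcytosine and so help to remove methylation from DNA. The 10 genes are markers of early embryos, ESCs or germ cells, and their promoters or enhancers are shut down, often with gain of DNA methylation, when pluripotent cells differentiate. Some of their products act on chromatin (Dppa2, Dppa4, Sall4, Utf1), some on RNA (Lin28a, L1td1), one guards methylation in the zygote (Dppa3) and one is a metabolic enzyme (Tdh). The question addressed was how far each gene was silenced in NSCs, and whether silencing was as deep without TET enzymes.

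Promoter sequences were examined because CpG sites, capitalized below, are the sites at which cytosine methylation is laid down and TET enzymes act. RefSeq promoter windows (GRCm38.p6) matched 3 of the 10 genes, and those of Utf1 and L1td1, which lie directly upstream of the annotated gene, are shown 5′ to 3′ over the 250 bases before the start (Utf1 chr7:139943606-139943855, plus strand; L1td1 chr4:98726504-98726753, plus strand).
Utf1: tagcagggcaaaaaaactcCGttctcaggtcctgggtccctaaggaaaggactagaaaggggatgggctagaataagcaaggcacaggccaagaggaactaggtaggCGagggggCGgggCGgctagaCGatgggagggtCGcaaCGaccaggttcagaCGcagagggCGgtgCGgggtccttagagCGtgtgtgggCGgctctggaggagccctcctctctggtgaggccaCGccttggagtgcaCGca
L1td1: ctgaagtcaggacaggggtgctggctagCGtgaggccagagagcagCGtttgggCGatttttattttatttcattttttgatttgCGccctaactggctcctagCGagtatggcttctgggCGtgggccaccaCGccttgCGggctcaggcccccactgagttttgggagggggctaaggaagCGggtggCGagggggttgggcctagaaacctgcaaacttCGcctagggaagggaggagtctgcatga
The Utf1 window holds 14 CpG sites and the L1td1 window 11, against a median of 6 over 32851 windows of that length. Of all windows 70.6% hold fewer than that of Utf1 and 64.4% fewer than that of L1td1. The third matched window, of Lin28a, lies inside the annotated gene and is not shown. It holds 7 CpG sites, and 53.7% of windows hold fewer. The Sp1 box GGGCGG, searched on both strands, occurred 4 times in the Utf1 window and not in that of L1td1, and 32.7% of all windows hold it. The octamer ATGCAAAT, the E-box CACGTG and TATAAA were found on neither strand of the Utf1 or L1td1 window, and 1.60%, 6.02% and 12.4% of all windows hold them. Methylation at these sites was not analysed here.

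The RNA-seq libraries held 41.0 M to 49.1 M reads, the NSC library of TKO line 1 being the deepest. Tet1 was lower in TKO NSCs (log2 fold change -0.47, limma adjusted p = 0.0320) and in TKO ESCs (-1.17, adjusted p = 2.45e-06), Tet3 was lower in both, and Tet2 was lower in TKO ESCs but did not pass in NSCs (adjusted p = 0.459), with reads outside any deleted exons counted. The 15 neural stem cell and radial glia markers summed to between 196710 and 205060 normalized counts in TKO NSCs and between 393390 and 402260 in WT NSCs, and 11 of the 15 were lower in TKO NSCs, among them Nes and Pax6. By the same test 19.5% of all tested genes were lower in TKO NSCs. Values are the deposited normalized counts unless stated. A log2 fold change sets TKO over WT and carries its standard error (SE), and a gene was called at an adjusted p under 0.05 in limma, two-sided.

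Lin28a and Sall4 were 10.1-fold and 8.85-fold higher in TKO NSCs than in WT NSCs, folds being taken on the log2(value + 1) scale. Lin28a, which blocks maturation of let-7 microRNAs, had 2490 and 1495 normalized counts in TKO NSCs, against 217, 201.4 and 159 in WT NSCs. Both TKO libraries were above all WT libraries, and the log2 fold change was 3.33 (SE 0.22, adjusted p = 7.33e-07). Sall4, a zinc finger factor that binds AT-rich DNA and recruits the NuRD deacetylase complex, had 1434 and 969 in TKO NSCs, against 118, 141 and 140 in WT NSCs. The groups were again far apart, with a log2 fold change of 3.15 (SE 0.21, adjusted p = 8.34e-07). These are levels in whole cultures, in which fewer cells that express a gene and less RNA per cell cannot be told apart.

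Utf1, a chromatin-bound factor of bivalent genes in ESCs, had 699.8 and 443 normalized counts in TKO NSCs, against 41.3, 49.8 and 60.2 in WT NSCs. The lower TKO line was above the highest WT line by a wide margin, and the log2 fold change was 3.45 (SE 0.31, adjusted p = 6.60e-06). L1td1, an RNA-binding protein descended from a LINE-1 element, had 744 and 378 in TKO NSCs, against 72.3, 139 and 140 in WT NSCs. The groups did not overlap, although TKO line 1 was well above TKO line 2, and the log2 fold change was 2.23 (SE 0.35, adjusted p = 0.000421).

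The Dppa genes differed from each other in how much RNA was left in WT NSCs. Dppa2 and Dppa4 are neighbours on chromosome 16 and encode SAP-domain proteins that bind together at CpG-rich promoters and keep developmental genes open. Dppa2 had 56.0 and 33.2 normalized counts in TKO NSCs, against 0, 0 and 0 in WT NSCs. Dppa2 had 95 reads over the TKO libraries and 0 over the WT libraries, set at a floor of 3 over the group. It was at least 21.9-fold higher in TKO NSCs with each pair of mates taken as 1 count. With each mate counted the bound was 43.8-fold. Its fitted log2 fold change (5.46, SE 1.15, adjusted p = 0.00305) depends on the pseudocount and is no bound. Dppa4 had 88.2 and 46.8 in TKO NSCs, against 4.13, 15.2 and 11.7 in WT NSCs. The groups did not overlap, and the log2 fold change was 2.68 (SE 0.70, adjusted p = 0.0107).

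Dppa5a, which encodes a KH-domain RNA-binding protein, had 143 and 111 normalized counts in TKO NSCs, against 24.8, 34.6 and 31.1 in WT NSCs. The log2 fold change was 2.04 (SE 0.41, adjusted p = 0.00212), with no overlap. Dppa5a and Dppa3 have pseudogene copies in the mouse genome, and the sources used here do not say how reads that match several places were counted. Dppa3 protects 5-methylcytosine of the maternal genome from oxidation. It gave no value in NSCs, where the lowest total of any listed gene was 51 reads over the 5 libraries.

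Fbxo15, an F-box gene that is a classic reporter of reprogramming, had 47.8 and 33.2 normalized counts in TKO NSCs, against 8.27, 2.17 and 7.77 in WT NSCs. The log2 fold change was 2.68 (SE 0.80, adjusted p = 0.0215), the groups not overlapping. Tdh, the mitochondrial threonine dehydrogenase on which mouse ESCs depend for one-carbon units, had 121 and 56.6 in TKO NSCs, against 43.4, 52.0 and 35.9 in WT NSCs. TKO line 1 stood apart while TKO line 2 was just above the WT lines, and the difference did not pass the test (log2 fold change 0.92, SE 0.45, adjusted p = 0.132). Tdh passed where all 10 libraries were fitted together (0.90, adjusted p = 0.00779).

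Over the NSC libraries, 8 of the 9 listed genes were called higher in TKO and 0 lower by limma (0 also at an unadjusted p under 0.05, with edgeR and with DESeq2), where 18.2% of all tested genes were called higher and 19.5% lower. The median log2 fold change was 2.68 over the 9 genes and 0.0059 over all genes. Dppa2 and Fbxo15 reached the minimum mean of 10 only through the TKO libraries, so that they had to differ, and of the other 7 genes 6 were called. In 9 of 9 genes both TKO libraries were above all WT libraries, as in 30% of all tested genes. Without TKO line 1 the calls of Dppa4 (2.23, adjusted p = 0.115) and Fbxo15 (2.43, adjusted p = 0.140) were lost and Dppa2 fell under the minimum, leaving 5 of 8, and Fbxo15 was also lost without TKO line 2 (adjusted p = 0.0633).

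**Figure D1:**
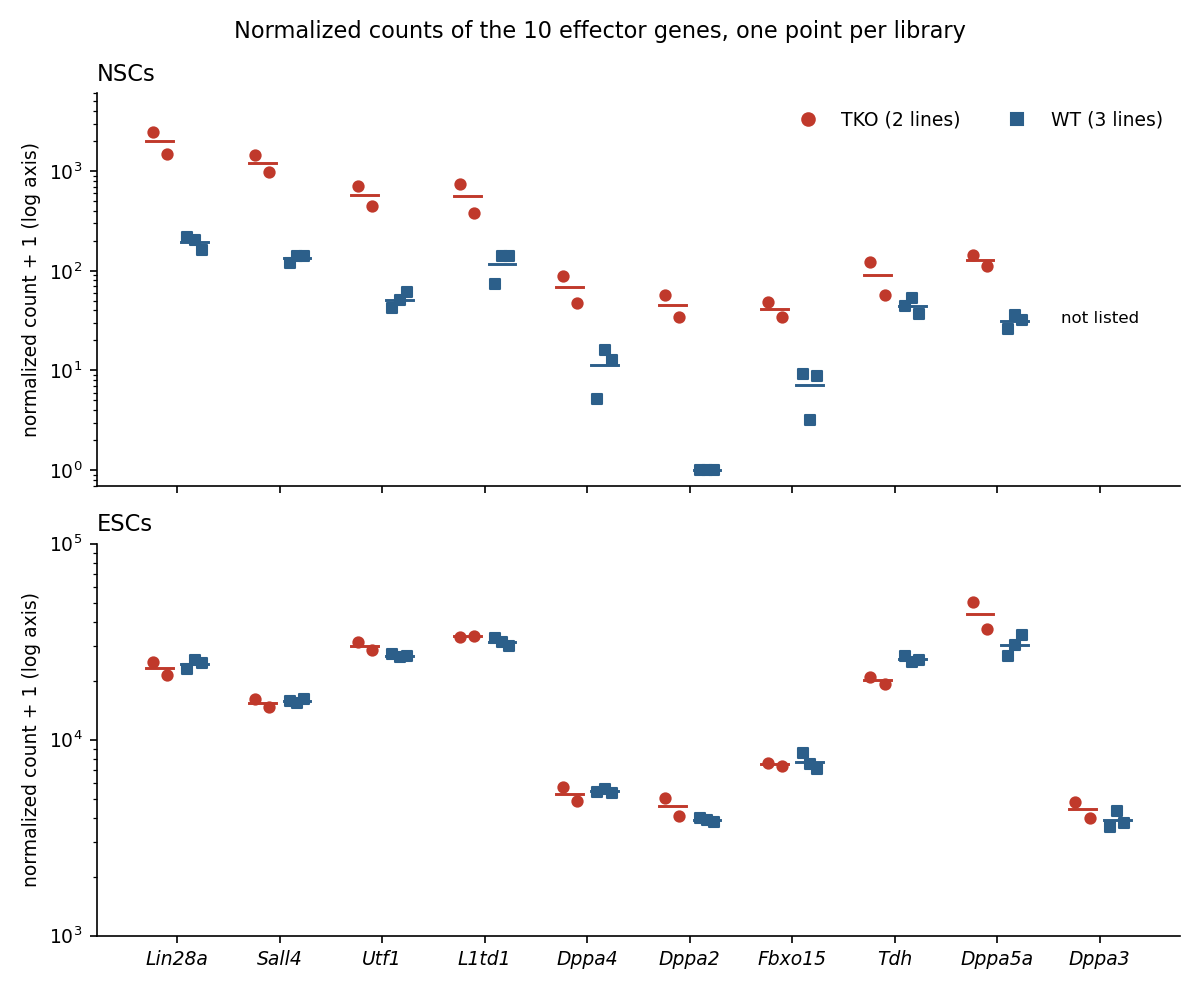
Normalized count plus 1 (log axis) of each gene in each NSC library (upper panel) and ESC library (lower panel), TKO in red and WT in blue, with a bar at each group's mean. In NSCs the TKO points of the 9 listed genes lie above the WT points, while in ESCs the groups lie close together.

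Undifferentiated ESCs gave another picture. Of the 10 genes, 1 was called higher and 1 lower in TKO ESCs, where 7.29% and 7.02% of all tested genes were called (14.3% in either direction). Dppa5a had 50498 and 36534 normalized counts in TKO ESCs, against 26564, 30356 and 34366 in WT ESCs. Its log2 fold change was 0.51 (SE 0.12, adjusted p = 0.00722) with TKO line 1 well above all others, and without that line it was 0.27 (adjusted p = 0.152). Tdh had 20903 and 19264 in TKO ESCs, against 26724, 25009 and 25585 in WT ESCs. Its log2 fold change was -0.36 (SE 0.07, adjusted p = 0.00316), without overlap and in the direction opposite to its values in NSCs. Neither call held where all 10 libraries were fitted together, with an adjusted p of 0.0537 for Dppa5a and 0.307 for Tdh.

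The other 8 genes had log2 fold changes between -0.08 (Lin28a) and 0.23 (Dppa2) in ESCs, and none passed the test. Lin28a had 24769 and 21418 in TKO ESCs, against 23029, 25619 and 24514 in WT ESCs, and Sall4 had 16175 and 14709, against 15787, 15320 and 16068. For both genes the groups overlapped, and the adjusted p was 0.567 for Lin28a and 0.864 for Sall4. Dppa2 had 5058 and 4078 in TKO ESCs, against 3974, 3871 and 3812 in WT ESCs, and Utf1 had 31421 and 28596, against 27335, 26468 and 26755. In both the TKO libraries lay above the WT libraries by a margin that did not pass (adjusted p = 0.160 for Dppa2 and 0.165 for Utf1). L1td1 averaged 33588 ± 90.3 in TKO ESCs and 31537 ± 1388 in WT ESCs, Dppa4 averaged 5302 ± 589 and 5463 ± 118, and Fbxo15 averaged 7470 ± 163 and 7694 ± 722 (SD, n = 2 TKO and n = 3 WT). In 4 of 10 genes both TKO libraries were above all WT libraries, as in 21.9% of all tested genes.

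Dppa3 could be compared in ESCs alone. It had 4831 and 3986 normalized counts in TKO ESCs, against 3581, 4335 and 3776 in WT ESCs. The groups overlapped and the difference did not pass (log2 fold change 0.18, SE 0.11, adjusted p = 0.322). Dppa3 lies on distal chromosome 6, where the 191 tested genes within 10 Mb had a median log2 fold change of 0.55 in ESCs. The 195 tested there in NSCs had a median of 0.53. With each chromosome centred, Dppa3 stood at -0.0012 in ESCs (adjusted p = 0.996). Around the other 9 genes the median within 10 Mb lay between -0.14 (Utf1) and 0.08 (Sall4) in ESCs and between -0.12 (Utf1) and 0.04 (Sall4) in NSCs.

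**Figure D2:**
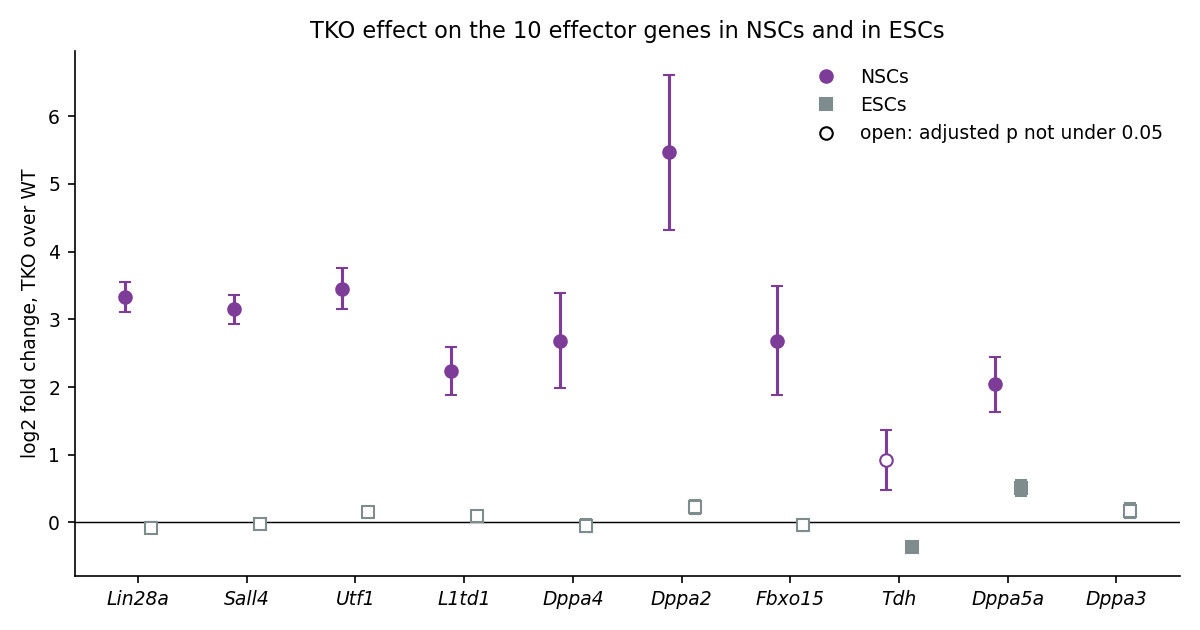
Log2 fold change of TKO over WT with its standard error for each gene in NSCs (purple circles) and ESCs (grey squares), filled where the adjusted p was under 0.05. The NSC values of 8 genes lie above 2, Tdh is open at 0.92, and the ESC values lie between -0.36 and 0.51.

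The depth of silencing was then read from NSCs against ESCs, with the 10 libraries brought to a common scale. All 9 genes listed in both tables were lower in NSCs than in ESCs in TKO and in WT, where 34.8% of all tested genes were called lower in TKO and 37.5% in WT. The median log2 fold change of NSC over ESC was -6.80 in TKO and -9.49 in WT for the 9 genes, and -0.0046 and -0.0017 for all genes. In TKO NSCs 5 of the 9 genes kept under 1% of their TKO ESC level, and in WT NSCs all 9 kept under 1% of their WT ESC level. The count in TKO depends on the scaling, since under 2 other scalings Dppa4 kept from 0.936% to 1.21% in TKO.

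What was left differed widely between genes. In TKO, Lin28a kept 6.26% of its ESC level in NSCs (7.28% in line 1 and 5.08% in line 2), against 0.578% in WT (0.686%, 0.575% and 0.477% by line). Sall4 kept 5.65% in TKO (6.42% and 4.79%), against 0.618% in WT (0.543%, 0.672% and 0.639%). The ranges of Lin28a and Sall4 overlapped each other within each genotype, and both lay above those of the other 7 genes in TKO and in WT.

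Utf1 kept 1.38% in TKO (1.61% and 1.13%), against 0.137% in WT (0.110%, 0.138% and 0.165%). L1td1 kept 1.21% in TKO (1.61% and 0.816%), against 0.271% in WT (0.160%, 0.320% and 0.341%). Dppa4 kept 0.924% in TKO (1.12% and 0.697%), against 0.138% in WT (0.0555%, 0.198% and 0.159%). These and Dppa2, which kept 0.709% in TKO (0.802% and 0.592%), formed a middle group in which neighbours in the order overlapped between lines. In WT, Dppa2 had 0 reads in NSCs, which allows a share of up to 0.0193%, or 0.0386% with mates taken as pairs, for counting error only.

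Fbxo15 kept 0.393% in TKO (0.456% and 0.328%), against 0.0577% in WT (0.0708%, 0.0212% and 0.0804%). Tdh kept 0.322% in TKO (0.420% and 0.214%), against 0.124% in WT (0.118%, 0.152% and 0.103%). Dppa5a kept 0.212% in TKO (0.205% and 0.221%), against 0.0725% in WT (0.0680%, 0.0835% and 0.0664%). These 3 stood lowest in TKO, and Tdh overlapped both of the others. From Dppa5a to Lin28a the TKO share spanned 29.5-fold, and for 9 of 9 genes the lower TKO line was above the highest WT line, as for 25% of the 15167 genes above 0 in all ESC libraries.

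**Figure D3:**
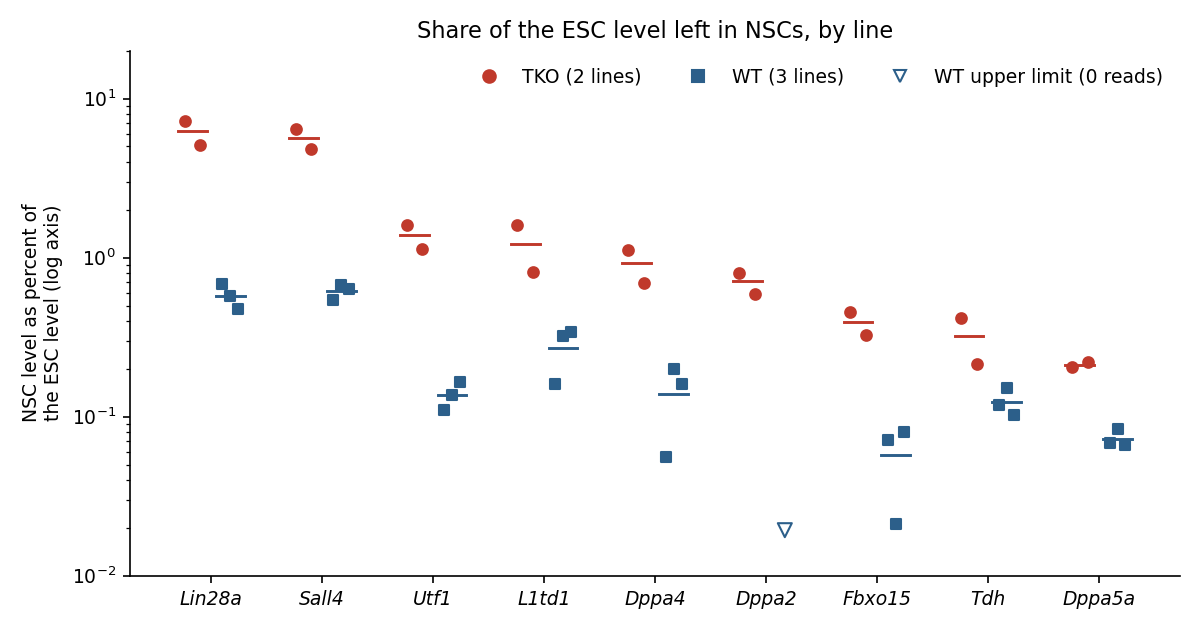
NSC level as a percent of the ESC level of the same line (log axis), for TKO lines (red) and WT lines (blue), with a bar at the group's value and an open triangle at the upper limit for Dppa2 in WT (0.0193%, from reads). Lin28a (6.26%) and Sall4 (5.65%) stand highest in TKO and Dppa5a (0.212%) lowest, and each gene's TKO points lie above its WT points.

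The difference between genotypes in this fall was tested directly, as the TKO effect in NSCs minus that in ESCs. All 9 genes were called higher, where 10.3% of all tested genes were called higher, and their median difference was 2.697 on the log2 scale, against 0.02 over all genes. Lin28a gave 3.40 (SE 0.24, adjusted p = 6.10e-07), so that the share kept in TKO was 10.8-fold that in WT. Utf1 gave 3.28 (SE 0.24, adjusted p = 7.55e-07) and Sall4 gave 3.16 (SE 0.19, adjusted p = 1.96e-07), with shares 10.1-fold and 9.15-fold those in WT. Dppa4 gave 2.697 (SE 0.53, adjusted p = 0.00261), Fbxo15 gave 2.67 (SE 0.50, adjusted p = 0.00185) and L1td1 gave 2.13 (SE 0.37, adjusted p = 0.00110). Their shares were 6.70-fold, 6.82-fold and 4.47-fold those in WT.

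The smallest differences belonged to Dppa5a at 1.52 (SE 0.24, adjusted p = 0.000556) and Tdh at 1.27 (SE 0.33, adjusted p = 0.0139), with shares 2.92-fold and 2.59-fold those in WT. The call of Tdh was lost without the ESC library of TKO line 2 (adjusted p = 0.0516). For Dppa2, with reads summed over each group's libraries, 0.718% was kept in TKO. This was at least 18.6-fold the share in WT with mates taken as pairs, or 37.1-fold with each mate counted. The fitted difference of Dppa2 was 5.004 (SE 0.41, adjusted p = 2.33e-06).

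The TKO lines were not alike. In NSCs, TKO line 1 was above TKO line 2 for 9 of 9 genes, with ratios from 1.29 (Dppa5a) to 2.14 (Tdh) and a median of 1.67, against a median of 1.00 over all genes. In ESCs the ratios ran from 0.996 (L1td1) to 1.38 (Dppa5a) with a median of 1.13, and line 1 was higher in 9 of 10 genes. Over 14 pluripotency transcription factors in NSCs the median ratio was 1.32, with 11 higher in line 1. No test was made of 1 library against another.

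Transcription factors of the pluripotency network did not follow one pattern. Of 17 on the list, 14 were tested in NSCs, and 4 were called higher in TKO, 1 lower and 9 not called, with a median log2 fold change of 0.28. Over all tested genes 18.2% were called higher and 19.5% lower. Zscan10 (2.81) and Pou5f1 (2.74), the gene of Oct4, were the largest of those higher, and Sox2 (-1.02), which neural progenitors also express, was lower. Pou5f1 kept 2.83% of its ESC level in TKO NSCs and 0.467% in WT NSCs, in TKO between Sall4 and Utf1. Nanog kept 1.16% in TKO and 0.311% in WT, and Zfp42 kept 0.140% in TKO and 0.0273% in WT. Zfp42 passed neither in NSCs (adjusted p = 0.104) nor for the difference between the cell types (adjusted p = 0.0830). Esrrb, named after its values were seen, kept 0.269% in TKO and 0.235% in WT and did not pass in NSCs (adjusted p = 0.658). For 5 of the 14 factors both TKO lines kept a larger share than all WT lines, for 5 a smaller one, and for the rest the lines overlapped, where 25% and 22.1% of all those genes had a larger and a smaller share without overlap. Prdm14, Nr0b1 and Tcl1 were not listed in NSCs.

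**Figure D4:**
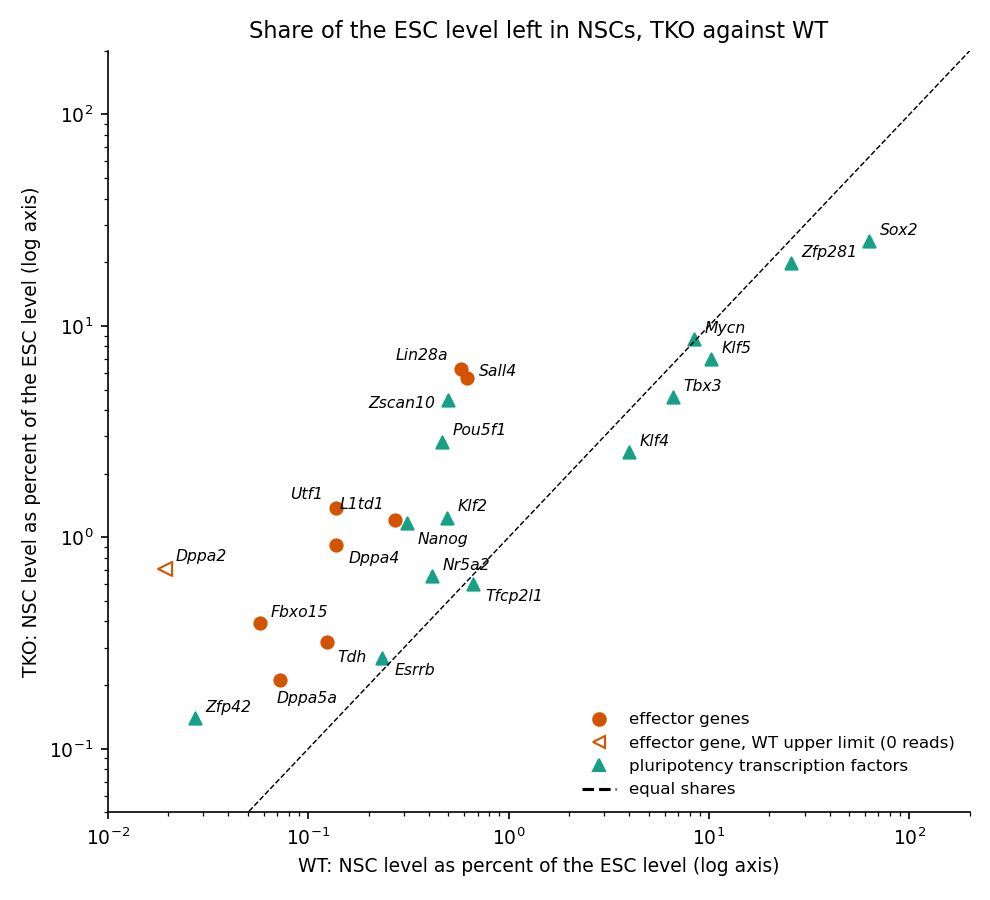
Share of the ESC level kept in NSCs in TKO (vertical, percent, log axis) against WT (horizontal, percent, log axis), for the effector genes (orange circles, Dppa2 at its WT upper limit from reads) and for 14 pluripotency transcription factors (green triangles), with a dashed line where the shares are equal. The effector genes lie above the line, together with factors that include Pou5f1, Zscan10, Nanog and Zfp42 (the last passing no test in NSCs). Esrrb and Tfcp2l1 lie near the line, and factors that include Sox2 lie below it. For 5 of the 14 factors both TKO lines kept a larger share than all WT lines, and for 5 a smaller one.

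Genes that work with the effectors were counted next, where 18.2% of all tested genes were called higher in TKO NSCs and 19.5% lower. Of 20 genes of the Lin28 and let-7 pathway, Lin28a included, 11 were called higher in TKO NSCs and 3 lower. Lin28b, the paralog of Lin28a, had a log2 fold change of 2.48 (SE 0.20) and kept 66.7% of its ESC level in TKO NSCs, against 9.23% in WT NSCs. Ccnd1, a D-type cyclin that let-7 represses, was lower by the largest amount (-2.23, SE 0.07), and Dis3l2, the nuclease that degrades uridylated let-7 precursors, was also lower (-0.41, SE 0.10).

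Of 14 genes of the Spalt family and NuRD, 3 were called higher in TKO NSCs and 5 lower. The shares over all tested genes were 18.2% and 19.5%. Sall4 was the one Spalt gene higher, whereas its paralogs Sall3 (-0.92, SE 0.20) and Sall1 (-0.58, SE 0.12) were lower. The NuRD subunit gene Gatad2a was higher by a small amount (0.27, SE 0.07). Of 17 genes of threonine and glycine metabolism around Tdh, 4 were higher and 7 lower. The folate-cycle genes Shmt1 (0.71, SE 0.10) and Mthfd2 (0.56, SE 0.08) were higher, and Amt of the glycine cleavage system was lower (-0.84, SE 0.14). Sdsl, a serine dehydratase-like gene, was at 0 in both TKO NSC libraries, against 73.4, 47.6 and 49.5 normalized counts in WT NSCs.

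Other genes associated with pluripotency comprised 24, of which 22 were tested in NSCs, 10 called higher in TKO and 5 lower. The shares over all tested genes were 18.2% and 19.5%. Gdf3, a TGF-beta family ligand of ESCs, averaged 143 ± 94.2 in TKO NSCs and 2.03 ± 2.07 in WT NSCs (SD, n = 2 TKO and n = 3 WT). Trap1a averaged 190 ± 8.60 in TKO NSCs and 6.03 ± 5.38 in WT NSCs. Gdf3 and Trap1a reached the minimum mean of 10 only through the TKO libraries, so that they had to differ. Jam2 (-1.77) and Fut9 (-1.71), the fucosyltransferase that makes the SSEA-1 antigen, were lower. Dnmt3l, the cofactor of de novo methylation in germ cells and ESCs, kept 0.651% of its ESC level in TKO NSCs and 0.0296% in WT NSCs.

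Downstream of Dppa2 and Dppa4, 2 of 18 listed genes of the 2-cell-like programme were tested in NSCs, and 0 were called by limma, edgeR or DESeq2, with 1 higher at an unadjusted p under 0.05. In ESCs 8 were tested, 0 called higher by limma (0 also at an unadjusted p under 0.05, with edgeR and with DESeq2) and 1 lower. Over all tested genes in ESCs 7.29% were called higher and 7.02% lower. Of 22 germline genes silenced by promoter methylation, 5 were tested in NSCs, with 1 called higher and 1 lower. The one higher was Tex19.1, at 41.8 ± 9.82 in TKO NSCs and listed at 0 in all WT NSC libraries. It reached the minimum mean of 10 only through the TKO libraries, so that it had to differ. Tex19.1 was also higher in TKO ESCs (log2 fold change 1.75, limma adjusted p = 5.21e-05). The genes next to the effectors on their chromosomes showed 8 higher and 4 lower of 23 tested in NSCs. Over all tested genes 18.2% were called higher and 19.5% lower. Gdf3 and Nanog were the largest of those higher, Gdf3 reaching the minimum mean of 10 only through the TKO libraries. Around Dppa3 the 195 tested genes within 10 Mb had a median log2 fold change of 0.53 in NSCs, and its part in this count was not tested.

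Markers of other cells moved in NSCs as well, and their part in the results on the effectors was not tested. Over all tested genes in NSCs 18.2% were called higher and 19.5% lower. Fibroblast and feeder markers, 12 of 12 listed, summed to between 166840 and 198380 normalized counts in TKO NSCs and between 78287 and 98523 in WT NSCs, with 8 of 12 called higher in TKO and 2 lower. In ESCs the same markers summed to between 34597 and 37727 in TKO and between 31280 and 36992 in WT. There 0 of 12 were called by limma (0 also at an unadjusted p under 0.05, with edgeR and with DESeq2). Over all tested genes in ESCs 14.3% were called. Mesoderm markers, 10 of 12 listed, summed to between 11708 and 11767 in TKO NSCs and between 6040 and 6625 in WT NSCs, with 5 of 10 called higher and 1, Kdr, lower. Mesp1 and Msgn1 were not listed.

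Trophoblast and epithelial markers, 10 of 12 listed, summed to between 5321 and 10045 in TKO NSCs and between 2714 and 3227 in WT NSCs, with 5 of 10 called higher and 1 lower. In ESCs, with all 12 listed, they summed to between 44097 and 45080 in TKO and between 51359 and 55140 in WT. Primordial germ cell markers, 8 of 12 listed, summed to between 2977 and 3085 in TKO NSCs and between 2743 and 3247 in WT NSCs, with 1 called higher and 1 lower, and Dazl and Prdm14 were not listed. In ESCs, with all 12 listed, the germ cell markers summed to 17104 to 17126 in TKO and 15599 to 16469 in WT. Endoderm markers, 7 of 12 listed, summed to between 6779 and 10137 in TKO NSCs and between 10509 and 12222 in WT NSCs, with 1 of 7 called higher and 2 lower. For each of these lists the shares called over all tested genes in NSCs were 18.2% higher and 19.5% lower. The 14 tested pluripotency factors, of which Sox2 alone averaged 7592 ± 1362 in TKO NSCs and 15340 ± 1027 in WT NSCs, summed to between 16073 and 16546 in TKO and between 20147 and 22741 in WT.

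The effector genes varied together over the 10 libraries, which fall into ESCs and NSCs, so the correlations mostly describe that split. Over the 36 pairs of the 9 genes, Pearson's r on log2 values ran from 0.957 (Tdh with Lin28a) to 0.9996 (Dppa2 with Sall4). The genes outside the list most like their mean were Slc7a3, a cationic amino acid transporter (r = 0.999), then Socs2, Ap1m2, Ptpn3 and Slc7a7. Slc7a3 kept 6.09% of its ESC level in TKO NSCs and 2.29% in WT NSCs. Most like Lin28a were Dnmt3l (r = 0.997), Ankrd35 and Foxd3, most like Dppa4 were Smpdl3b, Ptpn3 and Slc35f2, and most like Dppa5a were Lncenc1, Gga2 and Atic.

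Promoter contacts in NSCs were read from the authors' loop lists, in which each loop carries their own score. Fragments that hold an end of one of the 10 genes had 7 loops in TKO and 11 in WT, and 2 loops were in both lists. Of all 17726 genes with a position, 73.6% had a loop in TKO and 75.5% in WT, and among the 14514 with any loop, 48.2% had fewer in TKO and 37.6% more. Of the effectors 6 had any loop, 5 with fewer in TKO and 1 with more. With 1 library per genotype there is no replicate check and no test.

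Lin28a was the gene with more loops, 3 in TKO (scores 5, 5.41 and 5.39, at 181, 207 and 703 kb) against 1 in WT (score 5.48, at 311 kb), and none was in both lists. The L1td1 fragment contacted the fragment of Usp1, 192 kb away, in both lists, with a score of 5.80 in TKO and 7.54 in WT. A loop over 465 kb was in the WT list alone. The adjoining fragment, which holds most of the L1td1 promoter window shown above, had a loop over 161 kb in both lists. Its score was 11.71 in TKO and 6.56 in WT. The Tdh fragment contacted a fragment 129 kb away in both lists, with a score of 7.07 in TKO and 7.24 in WT, and had 2 further loops in WT. Utf1 had 2 loops in TKO and 3 in WT to different fragments. Of the 2 in TKO, 1 lay on the fragment with the 3′ end of Utf1 and not its start. The other Utf1 loops lay on the fragment with its start, which also holds an end of Kndc1. On fragments holding a gene end, Sall4 and Fbxo15 had 0 loops in TKO and 1 each in WT. Dppa2, Dppa3, Dppa4 and Dppa5a had 0 in both. The fragment adjoining that of Sall4 had a loop in TKO (score 6.63, at 455 kb) and a different one in WT (score 6.49, at 372 kb). With fragments within 5 kb of a gene counted as well, the loops in TKO and WT numbered 3 and 3 for Utf1, 4 and 4 for L1td1, 5 and 4 for Lin28a, 1 and 4 for Tdh and 1 and 7 for Sall4. Most of the 7 counted for Sall4 in WT lay on a fragment of the neighbouring gene Atp9a. All scores at fragments holding a gene end were under 10. Of the 7 scores in TKO, 2 were above that list's median of 6.20, and of the 11 in WT, 4 were above the median of 6.24.

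**Figure D5:**
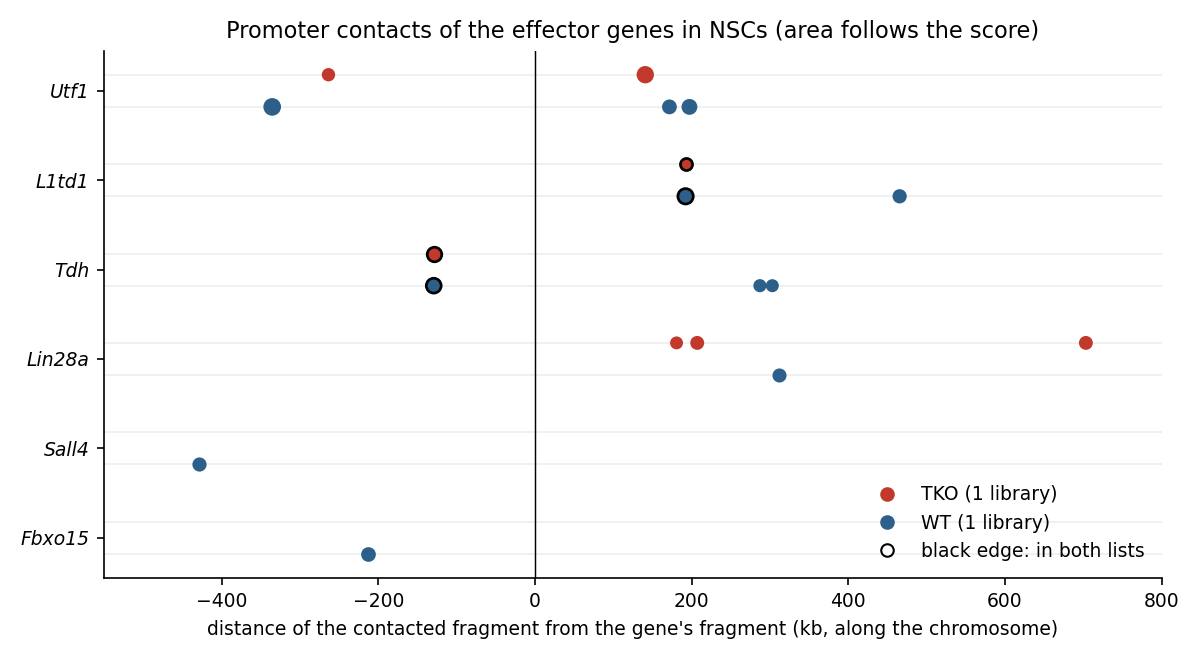
Distance in kb, along the chromosome, from the fragment of each gene to the fragment it contacts in TKO NSCs (red, upper line of each gene) and WT NSCs (blue, lower line), with larger points for higher scores (5 to 7.54) and a black edge for loops in both lists. Lin28a has 3 loops in TKO and 1 in WT, the other genes shown have fewer in TKO (Utf1 and L1td1 have equal numbers with fragments within 5 kb counted), and only L1td1 and Tdh have a loop in both.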

How the data were processed

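Per the submitters' processing notes, the build was mm10 and the tools included STAR 2.7.3a, Trim Galore 0.6.5, DESeq2 1.40.2 and featureCounts. The deposited RNA-seq signal is, per the labels, read counts divided by DESeq2 size factors, 1 table per cell type normalized by the authors on its own. Values were whole multiples of a step of 0.918 to 1.08 per library, and 100% came out as whole reads within 1e-06. Of the recovered counts from 1 to 20, between 75.2% and 82.7% per library were even. The bounds with mates taken as pairs are therefore the safer ones. The deposited loop lists give a score per loop, from the authors. The sources used here name neither the strand setting of the counting nor the loop caller.

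The 10 genes and all lists were chosen with earlier results of these data known. Of the other lists, at most 2 called genes of largest change in each direction were named, beside a fixed set of pluripotency, Tet and neural genes. One gene of the pluripotency factor list is not reported here and was left out of its counts. Within each table TKO was tested against WT by limma 3.58.1 (R 4.3.3, trend, log2(value + 1), mean of at least 10, Benjamini-Hochberg). This scale understates the change of low genes, and p-values rest on the spread of 2 TKO and 3 WT lines. For NSCs against ESCs and the difference between genotypes, recovered reads of the 15381 genes in both tables were scaled by the median of ratios over 10 libraries. Alternatives included edgeR 4.0.16 and DESeq2 1.42.0 on recovered reads. Procedures were tested on simulated data. Line codes are shared by the ESC and NSC library of a line, which pairs them by label, although deviations of same-numbered libraries correlated only at 0.030 in TKO and at -0.031, 0.0057 and 0.024 in WT.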

Additional observations from a re-analysis of the deposited data

Results flagged for a closer look

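For 9 genes the TKO effect differed between the cell types by a direct test, the log2 fold change of TKO over WT in NSCs minus that in ESCs (limma, adjusted over 15381 genes). The difference was 5.004 for Dppa2, 3.40 for Lin28a, 3.28 for Utf1, 3.16 for Sall4, 2.697 for Dppa4, 2.67 for Fbxo15, 2.13 for L1td1, 1.52 for Dppa5a and 1.27 for Tdh. All 9 kept their direction under 18 alternatives each, and the value of Dppa2, with 0 reads in WT NSCs, ran from 2.83 to 8.05 with the pseudocount and tool. The call of Tdh alone was lost, without the ESC library of TKO line 2 (adjusted p = 0.0516).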

How the results depend on the processing

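Of 785 values of the 10 genes under alternatives, 772 kept direction and side of the threshold, 7 lost a call, 1 gained one and 5 changed sign, none of these 5 called. With a mean of at least 50, 6 effectors were tested in NSCs and 5 called higher, since fewer genes were tested, and leaving out 1 library gave 5 to 8. In ESCs, 0 were called higher and 0 lower with all 10 libraries in one fit, and leaving out 1 library gave 0 to 1 higher. Leaving out 1 library moved all genes called in ESCs to between 1108 and 2302 (1108 without TKO line 2, 2437 with all), and the genes called for the difference between cell types to between 2063 and 3280 (2063 without the NSC library of TKO line 1, 3131 with all). In ESCs, Dppa3 turned to -0.0012 with chromosomes centred. Leaving out 1 library gave log2 fold changes of -0.16 to 0.066 for Dppa4, -0.19 to 0.024 for Lin28a and -0.096 to 0.041 for Sall4, each positive without TKO line 2, and -0.095 to 0.035 for Fbxo15, positive without WT line 1. The cause was not tested. With equal library totals the median share left in WT was 0.173%, against 0.137%, and the median of all genes shifted by 0.39 in TKO and 0.33 in WT for NSCs over ESCs, with 64.7% and 61.3% of calls higher (50.4% and 50.2% otherwise). Over 2 other scalings the share left in TKO ran from 6.34% to 8.23% for Lin28a and from 5.72% to 7.43% for Sall4. For Dppa4 it ran from 0.936% to 1.21%. Restricting to scores of at least 10 left 0 loops in TKO and 0 in WT at fragments holding a gene end, and fragments within 5 kb gave 15 and 24 at any score. With the replicate number or line as a block, 8 effectors were called higher in NSCs, and no call of the 10 genes changed. In NSCs 6275 genes were called with the block, in ESCs 1912, and 2908 for the difference. Same-numbered TKO and WT libraries share only a number. Precision is limited by the 2 TKO lines and by 1 pcHiC library per genotype.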
